A study of Mus musculus with 32 samples.

Results

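Genes that mark the alveolar type I cell were followed through mouse lung tumors with wild-type, trapped and restored Lkb1. The 10 genes are Hopx, Ager, Aqp5, Pdpn, Rtkn2, Clic5, Cav1, Igfbp2, Akap5 and Emp2. They were chosen by name, and all 10 were found among the 53558 genes in the deposited files. RNA was sequenced from neoplastic cells sorted out of dissociated tumors, in 32 libraries. All mice carried Rosa26LSL-tdTomato, a red reporter switched on by Cre, and Cre came from a lentivirus given into the airways. The sources used here name no promoter that limits this Cre to one cell type. KT tumors had wild-type Lkb1 (gene symbol Stk11), were untreated and gave 4 libraries, labelled 2 female and 2 male. Non-restored tumors carried Lkb1XTR/XTR, in which Cre turns on a gene trap that truncates Lkb1 transcripts, and gave 10 libraries. Of these, 6 had FLPo-ERT2 and received vehicle, and 4 lacked FLPo-ERT2 and received tamoxifen, with 7 from females and 3 from males. Restored tumors (n = 7, all female) carried Lkb1XTR/XTR and FLPo-ERT2, a recombinase that removes the trap when tamoxifen is given, and received tamoxifen in 4 mg doses during the 2 weeks before collection. These 3 groups had wild-type Trp53 and were collected 24 to 27 weeks after initiation. By the study's methods, KT mice also received a lower dose of the virus than Lkb1XTR/XTR mice with wild-type Trp53. In comparisons with KT, Lkb1 status therefore cannot be told apart from treatment (none against vehicle or tamoxifen) or virus dose. Below, "with Lkb1 loss" is short for non-restored against KT tumors. Tumors with Trp53flox/flox in addition were collected at 16 to 19 weeks and were either non-restored (7 libraries from 4 animals, 5 libraries with vehicle and 2 with tamoxifen, 4 female and 3 male) or restored with tamoxifen in the same way (n = 4, all female). Tumor age and Trp53 loss therefore cannot be told apart. The labels do not say which of the Trp53 wild-type libraries came from the same mouse, and for these tumors, restored or not, the study describes fewer mice than libraries. The p-values therefore treat libraries as independent and may measure partly technical spread.

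The lung alveolus is lined by type I and type II epithelial cells. Type I cells are flat, cover most of the gas-exchange surface and express water channels, caveolar proteins and membrane receptors, whereas type II cells are cuboidal, secrete surfactant and can give rise to type I cells after injury. Cells on the way from type II to type I pass through a state with high keratins.

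The libraries held 1302482 to 5943951 expected counts each. The KT group had the lowest mean (1871138, from 1302482 to 2649449), and several libraries of other groups lay within its range. Stk11 had 20 to 67 counts in KT, 0 to 2 in non-restored and 18 to 130 in restored libraries, and 0 to 4 counts per animal in non-restored and 24 to 67 in restored Trp53-deficient tumors, as the labels imply. The summed level of 12 type II markers was 64251 to 136602 CPM (counts scaled to library size by the trimmed mean of M-values) in KT, 7570 to 93391 CPM in non-restored and 53512 to 156438 CPM in restored libraries, and in Trp53-deficient tumors 9780 to 40075 CPM without and 44709 to 68445 CPM with restoration. The part of this sum in the type I results was not tested. In bulk RNA a smaller share of cells with a gene and less RNA of it per cell cannot be told apart. One library stood apart. In non-restored replicate 8, the surfactant gene Sftpc was at 1451 CPM, against 8097 to 34642 CPM in the other 9 libraries of its group, and Muc5b, a mucin of airway secretory cells, was at 6433 CPM, against 1.58 to 1377 CPM in the others. Muc5b made up nearly all of the sum of 5 airway markers there (6437 CPM), with Scgb1a1 at 3.86 CPM, Foxj1 at 0.227 CPM, and Krt5 and Trp63 at 0. It was also the lowest of the 10 libraries, alone or tied, for 9 of the 10 type I genes, all except Emp2. The calls and spreads of the type I genes are also given without it. The sort took cells negative for CD45, CD31, F4/80 and Ter119, markers of blood and endothelial cells, and 6 endothelial markers summed to 1.11 to 100 CPM over the libraries.

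Emp2 and Pdpn were the 2 type I genes that passed the test between non-restored and KT tumors, Emp2 higher and Pdpn lower in non-restored. Their promoters are shown because these 2 genes carry the result, as 250 bases before the start site (RefSeq, build GRCm38.p6). The Emp2 gene lies at chr16:10281749-10313968 and the Pdpn gene at chr4:143267431-143299564, both on the minus strand. No exon of the GENCODE M21 annotation lies in either window. Capitals mark matches to GGGCGG, the box bound by SP and KLF factors, on either strand.
Emp2, chr16:10313969-10314218, minus strand: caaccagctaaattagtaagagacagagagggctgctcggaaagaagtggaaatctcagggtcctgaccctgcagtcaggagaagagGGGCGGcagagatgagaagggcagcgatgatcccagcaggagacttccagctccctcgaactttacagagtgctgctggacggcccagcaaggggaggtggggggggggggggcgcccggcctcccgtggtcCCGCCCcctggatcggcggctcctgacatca
Pdpn, chr4:143299565-143299814, minus strand: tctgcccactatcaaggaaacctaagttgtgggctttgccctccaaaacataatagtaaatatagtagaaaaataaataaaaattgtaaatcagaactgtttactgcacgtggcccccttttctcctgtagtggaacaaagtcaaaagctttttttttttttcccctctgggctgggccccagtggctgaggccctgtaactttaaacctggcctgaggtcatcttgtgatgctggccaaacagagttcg
The Emp2 window held 2 matches to GGGCGG that do not overlap, the first 163 bases and the second 31 bases before the start site, and the Pdpn window held none. Of the 10 genes, 9 had promoters in the table, 12 in all, and GGGCGG was found in 6 of these 12, against 32.7% of all 32851 promoters. The 6 genes were Aqp5, Clic5, Cav1, Igfbp2, Akap5 and Emp2. CTCAAG, the box of NKX2-1, was found in 2 of the 12 (Hopx and Igfbp2), against 13.3% of all promoters. GGAATG, the box of TEAD factors, and TTGCNNAA, the box of C/EBP factors, were found in 0 of the 12, against 12.6% and 9.56% of all promoters. These matches describe the letters only.

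Per length, the 10 genes covered a wide range. On the TPM scale (transcript abundance per length, from RSEM), median levels over the 29 libraries and animals were 277 for Aqp5, a water channel, 261 for Ager, the receptor for advanced glycation end products, and 246 for Emp2, a membrane protein of the tetraspan family. Hopx, a homeodomain protein that does not bind DNA, had a median of 130 TPM, and Clic5, an intracellular chloride channel protein linked to the cytoskeleton, 124 TPM. Akap5, an anchor for protein kinase A, followed at 34.9 TPM and Cav1, the scaffold of caveolae, at 18.6 TPM. Pdpn, a surface glycoprotein, had 5.88 TPM, Rtkn2 2.93 TPM and Igfbp2, a secreted binding protein of insulin-like growth factors, 1.00 TPM. The order of neighbours such as Aqp5, Ager and Emp2 did not hold in every group, since Emp2 had a mean of 151 ± 45.0 TPM (SD, n = 4) and Ager 331 ± 80.9 TPM in KT, whereas Emp2 had 328 ± 68.6 TPM (SD, n = 10) and Ager 299 ± 124 TPM in non-restored tumors.

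**Figure D1:**
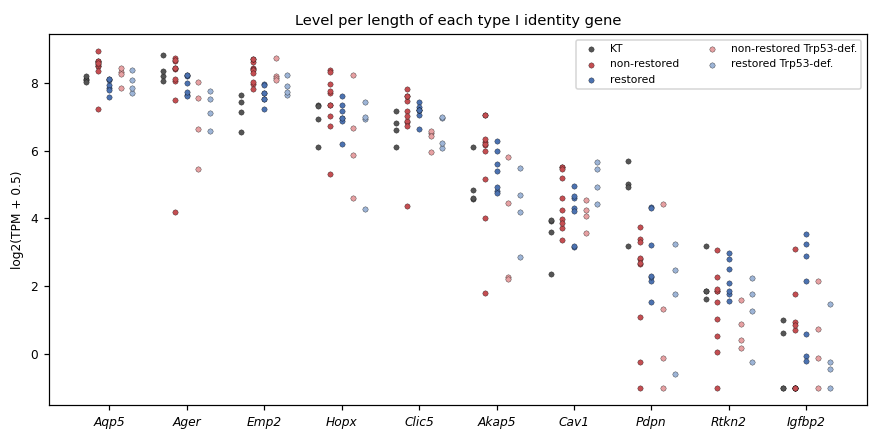
Level per length of each type I gene, as log2(TPM + 0.5), with 1 point per library (per animal for the non-restored Trp53-deficient group) and 1 color per group. Aqp5, Ager and Emp2 were highest and Igfbp2 lowest, and Ager, Hopx, Clic5 and Akap5 each have a point far below the rest of the non-restored group.

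Emp2 was higher in non-restored than in KT tumors. It was at 251, 535, 379 and 444 CPM in the 4 KT libraries. In the 10 non-restored libraries it ran from 531 to 989 CPM with a median of 778 CPM. All non-restored libraries but 1 lay above every KT library. The means were 402 ± 120 CPM (SD, n = 4) and 776 ± 160 CPM (SD, n = 10), a 1.93-fold difference (log2 fold change 0.95, SE 0.19, edgeR adjusted p = 0.00475). The call was lost in 1 of 25 alternatives, the one restricted to female libraries (log2 fold change 0.66, adjusted p = 0.222).

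After restoration Emp2 was lower. In the 7 restored libraries it ran from 365 to 590 CPM with a median of 538 CPM. Of the 10 non-restored libraries, 8 lay above every restored library. The restored mean was 509 ± 77.2 CPM (SD, n = 7), 1.53-fold below the non-restored mean (log2 fold change -0.62, SE 0.15, edgeR adjusted p = 0.0385). This call was close to the threshold. It was lost in 18 of 28 alternatives, over which the log2 fold change stayed between -0.66 and -0.51 and the adjusted p ran from 0.00551 to 0.187. It was kept only when non-restored replicate 5, 6 or 8 or restored replicate 5 was the library left out, and was lost for each of the other 13. All restored libraries were female, and among females alone the log2 fold change was -0.51 (SE 0.15, adjusted p = 0.105). Within the 2 control arms it was -0.62 against the tamoxifen arm (adjusted p = 0.187) and -0.61 against the vehicle arm (adjusted p = 0.0779). Against KT, restored tumors did not pass the test for Emp2 (log2 fold change 0.33, SE 0.20, adjusted p = 0.584). The 2 comparisons share the non-restored libraries. RSEM's mean transcript length for Emp2 was 3447 to 3475 bases in every library, and without non-restored replicate 8 the non-restored mean was 798 ± 153 CPM (SD, n = 9) and the log2 fold changes were -0.65 with restoration (adjusted p = 0.0183) and 0.99 with Lkb1 loss (adjusted p = 0.00201).

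Pdpn moved the other way with Lkb1 loss. Its level was 42.5, 11.6, 40.0 and 65.8 CPM in the KT libraries (14 to 138 counts). In non-restored libraries it ran from 0 to 16.4 CPM with a median of 6.78 CPM, and in restored libraries from 2.93 to 26.5 CPM with a median of 5.43 CPM. Of the 10 non-restored libraries, 8 lay below every KT library, and restored libraries overlapped both groups. Pdpn fell 6.00-fold from KT to non-restored tumors (log2 fold change -2.59, SE 0.68, edgeR adjusted p = 0.0269), from 40.0 ± 22.2 CPM (SD, n = 4) to 6.63 ± 5.11 CPM (SD, n = 10). The call was lost in 9 of 24 alternatives, among them those without KT replicate 1 (adjusted p = 0.0758), 3 (0.0652) or 4 (0.108), females alone (log2 fold change -1.93, adjusted p = 0.445), the sex covariate (adjusted p = 0.0604) and either control arm alone (adjusted p = 0.0726 and 0.0745). Without non-restored replicate 8, which had 0 counts, it was -2.42 (SE 0.59, adjusted p = 0.0156). Between restored and non-restored tumors the log2 fold change of Pdpn was 0.80 (SE 0.61, adjusted p = 0.584), and between restored and KT tumors it was -1.78 (SE 0.73, adjusted p = 0.374).

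**Figure D2:**
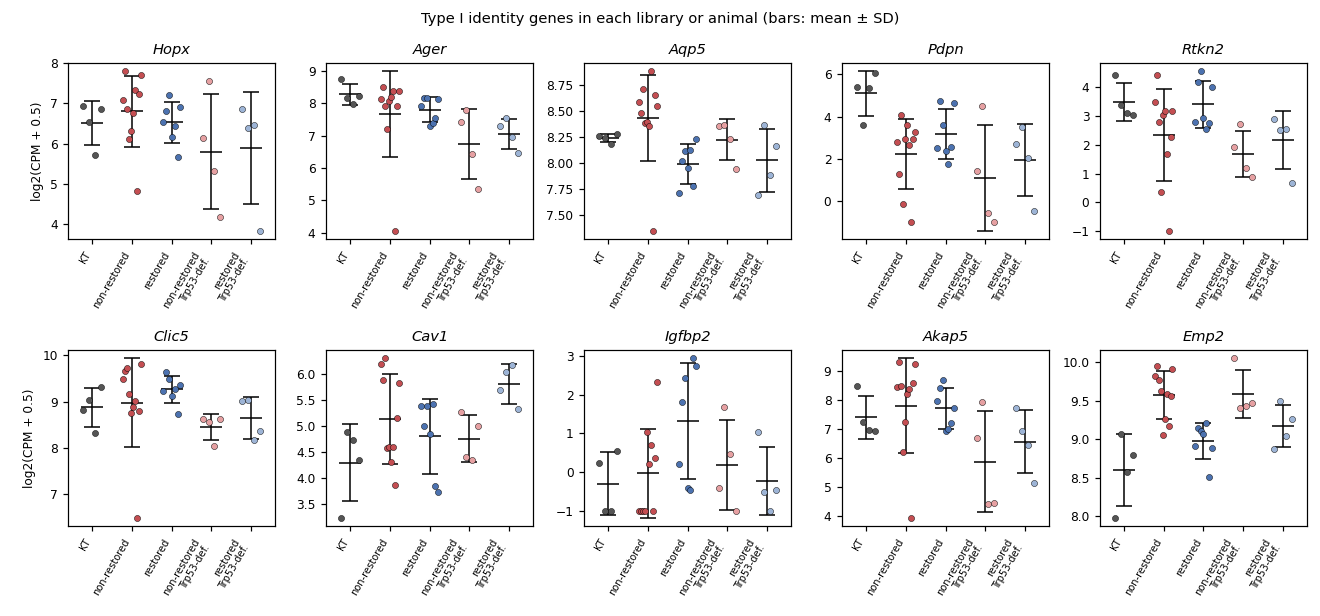
Level of each type I gene as log2(CPM + 0.5), with 1 point per library (per animal for the non-restored Trp53-deficient group) and bars for the mean ± SD of each group. Of the non-restored libraries, 9 of 10 lie above every KT library for Emp2 and 8 of 10 lie below every KT library for Pdpn, and the lowest non-restored point is replicate 8 for Hopx, Ager, Aqp5, Clic5 and Akap5.

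Of the 10 genes, 2 passed the test between non-restored and KT tumors, Emp2 higher and Pdpn lower, where 5.86% of all 12636 genes tested did (2.38% higher and 3.48% lower). Between restored and non-restored tumors 1 of 10 passed, Emp2 lower, where 1.87% of all genes did (0.973% higher and 0.894% lower). Between restored and KT tumors 0 of 10 passed with edgeR or with DESeq2, where 0.459% of all genes did with edgeR (0.127% higher and 0.332% lower). Of the 10, 2 had an unadjusted p under 0.05 with edgeR there, beside 1333 of all 12636 genes. The median log2 fold change over the 10 genes was 0.34 for non-restored against KT, -0.27 for restored against non-restored and 0.15 for restored against KT, beside 0.03, -0.01 and 0.01 over all genes. Without Igfbp2, which was near 0, these medians were 0.26, -0.40 and 0.01. Without non-restored replicate 8 the medians over the 10 genes were 0.46 with Lkb1 loss and -0.40 with restoration. No gene of the 10 had groups without overlap in any of these 3 comparisons, where 3.92%, 0.578% and 2.79% of all genes did.

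**Figure D3:**
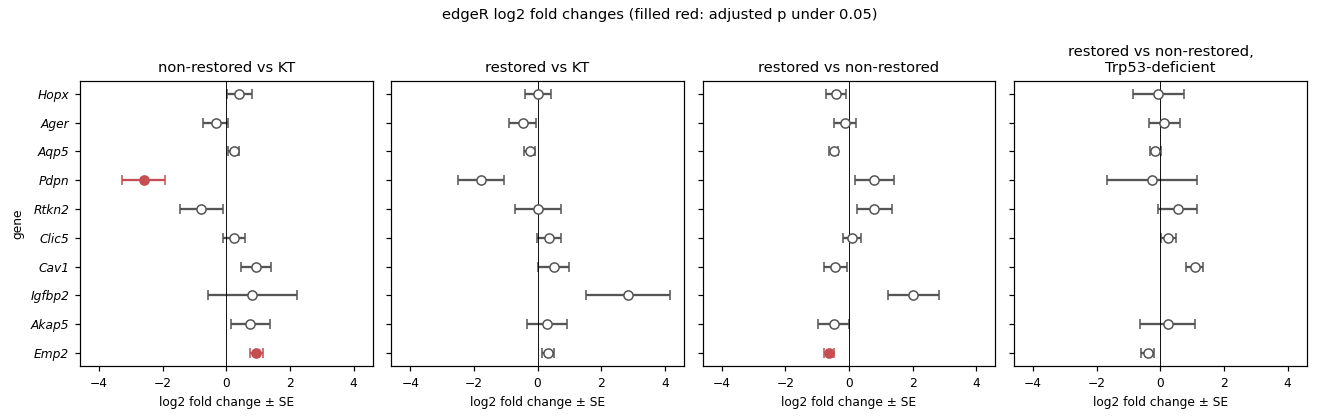
Fitted log2 fold changes ± SE of the 10 genes in 4 comparisons, with filled red points for an adjusted p under 0.05. Emp2 is filled for non-restored against KT (0.95) and restored against non-restored (-0.62), Pdpn for non-restored against KT (-2.59), and no gene in the other panels. Igfbp2 has no point in the Trp53-deficient panel, where it was not tested.

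Aqp5 had the tightest KT group and turned on a single library. It was at 304, 301, 290 and 310 CPM in KT (301 ± 8.25 CPM, SD, n = 4). In non-restored libraries it ran from 162 to 470 CPM with a median of 364 CPM, and in restored libraries from 208 to 299 CPM with a median of 259 CPM. Non-restored replicate 8 lay below all others, and the other 9 non-restored libraries lay above every KT and every restored library. With all libraries the log2 fold change between restored and non-restored tumors was -0.49 (SE 0.14, edgeR adjusted p = 0.0856). Without non-restored replicate 8 it was -0.57 (SE 0.09, adjusted p = 0.0012), from a non-restored mean of 377 ± 47.2 CPM (SD, n = 9) to a restored mean of 255 ± 32.8 CPM (SD, n = 7). Aqp5 also passed with DESeq2 (adjusted p = 0.0331) and against the vehicle arm alone (adjusted p = 0.012), and did not pass in 24 of 28 alternatives. Non-restored replicate 8 received tamoxifen, so the vehicle arm alone also leaves it out. Against KT, non-restored tumors differed in Aqp5 by 0.24 on the log2 scale (SE 0.17, adjusted p = 0.456), or 0.32 (adjusted p = 0.0868) without replicate 8, and restored tumors had -0.25 (SE 0.18, adjusted p = 0.676).

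Hopx and Ager, the genes most often used to name type I cells, did not pass any test between the Trp53 wild-type groups in any alternative. Hopx was at 123, 92.8, 52.2 and 115 CPM in KT. It ran from 28.1 to 223 CPM with a median of 126 CPM in non-restored libraries, and from 50.1 to 147 CPM with a median of 92.9 CPM in restored libraries. The groups overlapped throughout, with log2 fold changes of 0.42 (SE 0.39, edgeR adjusted p = 0.582) for non-restored against KT and -0.40 (SE 0.31, adjusted p = 0.595) for restored against non-restored. Ager was at 432, 286, 252 and 300 CPM in KT. It ran from 16.1 to 361 CPM with a median of 275 CPM in non-restored libraries, and from 156 to 287 CPM with a median of 242 CPM in restored libraries. The non-restored spread of Ager rested on replicate 8 (71 counts), and without it the lowest library was at 148 CPM. Its log2 fold changes were -0.34 (SE 0.41, adjusted p = 0.688) for non-restored against KT and -0.14 (SE 0.35, adjusted p = 0.904) for restored against non-restored. Without replicate 8 the restored against non-restored values were -0.52 (SE 0.26, adjusted p = 0.346) for Hopx and -0.28 (SE 0.17, adjusted p = 0.478) for Ager, and the lowest Hopx library was at 68.6 CPM. Akap5 and Rtkn2 also overlapped among the 3 groups. Akap5 ran from 121 to 353 CPM in KT, from 14.8 to 625 CPM in non-restored and from 120 to 409 CPM in restored libraries, and Rtkn2 from 7.63 to 21.2 CPM, from 0 to 21.2 CPM and from 5.40 to 23.3 CPM. The smallest adjusted p of these 2 genes was 0.513 in the 3 comparisons, and 0.285 without replicate 8, where the lowest non-restored Akap5 value was 73.0 CPM.

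Clic5 was at 449, 527, 322 and 638 CPM in KT. It ran from 89.0 to 898 CPM with a median of 544 CPM in non-restored and from 424 to 803 CPM with a median of 620 CPM in restored libraries. Its log2 fold changes were 0.26 (SE 0.35, edgeR adjusted p = 0.728) and 0.10 (SE 0.28, adjusted p = 0.913) for non-restored against KT and restored against non-restored. Without replicate 8 the lowest non-restored Clic5 value was 432 CPM, and these differences were 0.39 (SE 0.22, adjusted p = 0.317) and -0.02 (SE 0.18, adjusted p = 0.975), so that the second had the other sign. Cav1 is also strongly expressed by endothelium and fibroblasts. It was at 8.91, 29.0, 26.1 and 20.0 CPM in KT, from 14.1 to 78.6 CPM with a median of 29.4 CPM in non-restored and from 12.9 to 42.5 CPM with a median of 31.4 CPM in restored libraries, and passed no test (smallest adjusted p = 0.267). The 6 endothelial markers summed to 8.16 to 18.2 CPM in KT, 1.36 to 100 CPM in non-restored and 2.71 to 70.1 CPM in restored libraries. The 6 fibroblast markers summed to 13.9 to 78.7 CPM, 6.35 to 412 CPM and 26.3 to 250 CPM in the same groups. Their part in the level of Cav1 was not tested. Without replicate 8 the differences of Cav1 were 1.04 (SE 0.45, adjusted p = 0.182) with Lkb1 loss and -0.53 (SE 0.35, adjusted p = 0.524) with restoration. Igfbp2 had 1, 0, 0 and 2 counts in KT and 0 to 7 counts in non-restored libraries, of which 5 had 0. It had 1, 8, 13, 1, 1, 24 and 36 counts in restored libraries. The restored libraries thus held both values near 0 and the highest values, and the log2 fold change against non-restored tumors was 2.02 (SE 0.81, adjusted p = 0.223), or 1.85 (adjusted p = 0.254) without replicate 8.

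Among other genes known from type I cells and from the transitional state, a few passed with Lkb1 loss and most did not. In non-restored tumors against KT, 2.38% of all genes tested passed as higher and 3.48% as lower. Of 16 other type I genes, 2 rose in this comparison and 0 fell. These were Lmo7, an actin-associated protein, whose difference on the log2 scale was 1.22 (SE 0.29, edgeR adjusted p = 0.0157), and Cldn18, a tight junction protein, with 0.58 (SE 0.15, adjusted p = 0.0234). The calls of Lmo7 and Cldn18 were lost in 4 and 5 of 25 alternatives. In restored against non-restored tumors 0 of the 16 passed with edgeR, where 1.87% of all genes did. Of the 16, 5 had an unadjusted p under 0.05, beside 1913 of all 12636 genes. A negative log2 fold change was found for 12 of the 16, with a median of -0.22 over the list. Of 14 transitional genes 13 were tested. With Lkb1 loss 11 of the 13 had a positive log2 fold change, with a median of 0.70, and 5 had an unadjusted edgeR p under 0.05. With restoration 10 of the 13 had a negative one, with a median of -0.62, and 4 had an unadjusted edgeR p under 0.05. Cdkn1a, an inhibitor of the cell cycle, and Sfn, an epithelial 14-3-3 protein, passed as higher in non-restored tumors against KT, and 0 passed as lower. Their differences were 1.00 (SE 0.19, adjusted p = 0.00269) and 1.41 (SE 0.42, adjusted p = 0.047) on the log2 scale. The call of Sfn was lost in 19 of 24 alternatives, among them 12 of the 14 that left out 1 library. Sfn fell with restoration, from 15.0 ± 5.79 CPM (SD, n = 10) to 5.05 ± 2.63 CPM (SD, n = 7), which is -1.54 on the log2 scale (SE 0.32, adjusted p = 0.0131) and was kept in 26 of 27 alternatives. Of 6 regulators of type I differentiation 1 rose in non-restored tumors against KT. This was Tead1, a partner of YAP, with 0.71 (SE 0.20, adjusted p = 0.0397), and the call was lost in 12 of 25 alternatives. In restored against KT tumors 0 genes of these 3 lists passed with edgeR, where 0.459% of all genes did. Of 12 type II markers, Lyz2 alone passed with Lkb1 loss (log2 fold change -1.73, adjusted p = 0.0431) and with restoration (1.83, adjusted p = 0.0313). With Lkb1 loss 11 of the 12 had a negative log2 fold change, with a median of -0.65, and 5 had an unadjusted p under 0.05. With restoration all 12 had a positive one, with a median of 0.60, and 5 had an unadjusted p under 0.05. Over all 12636 genes, 2626 had an unadjusted p under 0.05 with Lkb1 loss and 1913 with restoration. Without non-restored replicate 8, Lmo7, Cldn18, Cdkn1a, Tead1 and Lyz2 still passed with Lkb1 loss, Sfn did not (adjusted p = 0.0516), and Sfn and Lyz2 still passed with restoration.

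The type I genes varied more between libraries of one group than most genes did. The pooled SD within groups, on the log2(CPM + 0.5) scale, was 0.30 for Aqp5, 0.31 for Emp2, 0.65 for Clic5, 0.73 for Cav1, 0.94 for both Hopx and Ager, 1.18 for Rtkn2, 1.31 for Akap5 and 1.64 for Pdpn. Over the 10582 genes with a mean of at least 5 CPM the median was 0.38, and 7 of the 9 type I genes above that level exceeded it. Without non-restored replicate 8 the pooled SD was 0.19 for Aqp5, 0.31 for Emp2, 0.38 for Clic5, 0.54 for Ager, 0.69 for Cav1, 0.86 for Hopx, 0.96 for Rtkn2, 1.03 for Akap5 and 1.51 for Pdpn, and again 7 of the 9 exceeded the median over genes, which was 0.36. Low values of several genes fell in the same few tumors. Within their groups, 3 tumors had the lowest value of 6 or more of the 10 genes, namely non-restored replicate 8 with 9 (ties at 0 included), non-restored Trp53-deficient animal 4 with 6 and restored Trp53-deficient replicate 4 with 6. Non-restored Trp53-deficient animal 4 also had the highest level of Muc5b (12838 CPM), which was nearly all of its airway marker sum (12852 CPM). Its type II markers summed to 9780 CPM, against 40075 CPM in animal 2, which was highest in its group for 7 of the 10 genes. Restored Trp53-deficient replicate 4 instead had the highest type II sum (68445 CPM) and the lowest airway sum (34.4 CPM) of its group. All 3 tumors had the lowest endothelial and fibroblast sums of their groups. In the order named above, these were 1.36 and 6.35 CPM, 5.00 and 7.73 CPM, and 1.11 and 2.00 CPM. The part of these sums in the low values was not tested.

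**Figure D4:**
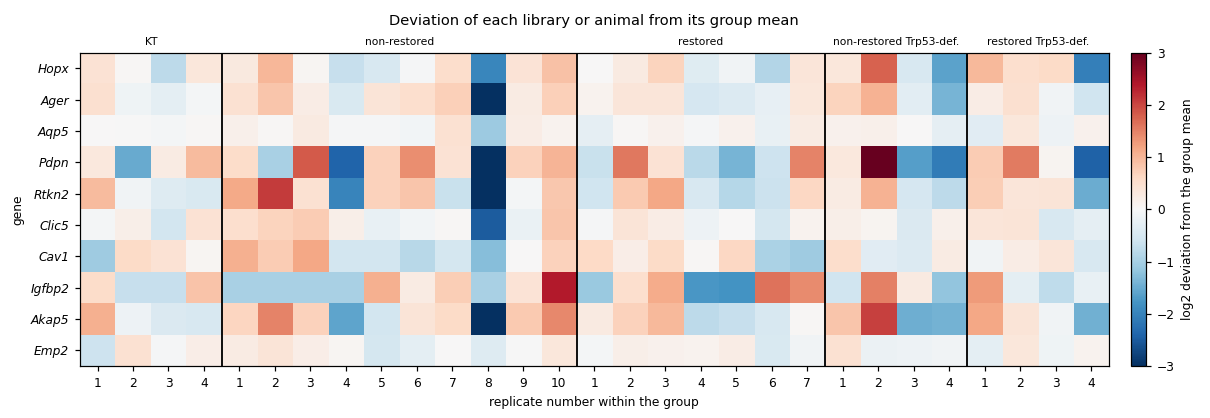
Difference of each library or animal from its group mean for the 10 genes, on the log2(CPM + 0.5) scale, with red above and blue below the mean and colors ending at 3 in either direction. The column of non-restored replicate 8 is blue in all rows, and Emp2 and Aqp5 have the palest rows.

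As deviations from group means over the 29 libraries and animals, Hopx, Ager, Akap5 and Rtkn2 went together. Spearman's rho was 0.85 for Hopx with Akap5, 0.84 for Ager with Akap5, 0.81 for Rtkn2 with Akap5 and 0.77 for Hopx with Ager. Emp2 was at 0.24 with Hopx, 0.17 with Ager and 0.05 with Pdpn, and highest with Cav1 (0.74), Clic5 (0.67) and Aqp5 (0.52). Without non-restored replicate 8 the values were 0.85 for Hopx with Akap5, 0.85 for Ager with Akap5, 0.77 for Rtkn2 with Akap5, 0.81 for Hopx with Ager and 0.69 for Emp2 with Cav1. These values describe points that share libraries and depth, and genes are not independent. Sex was not taken out of the deviations. In non-restored libraries mean Akap5 was 536 CPM in males and 223 CPM in females, and mean Hopx 193 and 99.7 CPM. Mean Ager was 312 and 226 CPM and mean Rtkn2 11.3 and 5.29 CPM, with replicate 8 among the females. The part of sex in these correlations was not tested. Over all 32 libraries and 10560 genes with a mean of at least 5 CPM, the genes most like Hopx were Ndst1 (rho 0.90), Akap5 (0.89) and Npnt (0.88), and those most like Ager were Mvb12b (0.86), Gramd2 (0.86) and Pcnt (0.86). Akap5 is one of the 10 genes and Gramd2 one of the 16 other type I genes. Emp2 and Cav1 both stood far from Hopx and Ager. Emp2 was at place 3989 for Hopx and 6060 for Ager, and Cav1 at place 3783 and 5813. The same 3 genes led for Hopx and for Ager without non-restored replicate 8.

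In Trp53-deficient tumors none of the 9 type I genes tested passed between restored and non-restored tumors, and neither did any of the 12516 genes tested with edgeR (0%, 748 at an unadjusted p under 0.05, against 26 called by DESeq2). Emp2 was at 1061, 678, 688 and 710 CPM in the 4 non-restored animals and at 467, 724, 524 and 615 CPM in the restored libraries, which gave -0.40 on the log2 scale (SE 0.20, edgeR adjusted p = 0.804). The restored libraries were lower in 3 of 4 cases than every non-restored animal. The fitted difference was -0.16 (SE 0.18) for Aqp5, -0.06 (SE 0.80) for Hopx, 0.12 (SE 0.49) for Ager and -0.26 (SE 1.41) for Pdpn, all with an adjusted p of at least 0.875. Cav1 was the 1 of these 9 genes whose groups did not overlap, where 3.62% of all genes did not. It was at 38.3, 20.8, 19.8 and 31.4 CPM in the non-restored animals and at 51.6, 65.1, 71.5 and 39.5 CPM in the restored libraries (log2 fold change 1.07, SE 0.27, unadjusted p = 0.0024, adjusted p = 0.804). Taken as single libraries, the 3 of animal 1 were at 40.4, 48.5 and 29.6 CPM, so that the groups overlapped. The endothelial markers summed to 5.00 to 29.5 CPM in non-restored animals and to 52.8, 18.9, 70.6 and 1.11 CPM in restored replicates 1 to 4, and the fibroblast markers to 7.73 to 362 CPM and to 1480, 230, 78.2 and 2.00 CPM. Restored replicate 4, which had the lowest of both sums, also had the lowest Cav1 of the restored libraries (39.5 CPM, 178 counts). The part of these cells in the level of Cav1 was not tested.

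**Figure D5:**
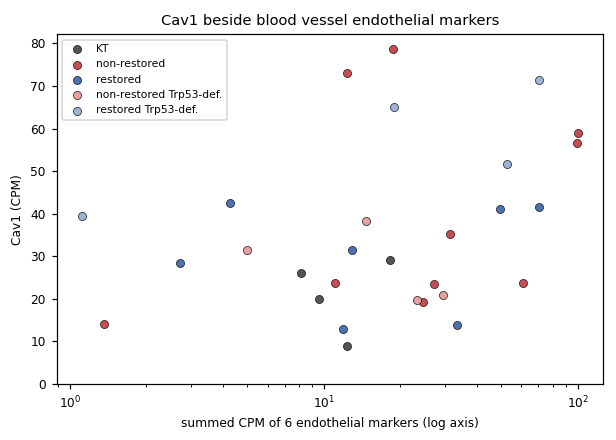
Cav1 in CPM against the summed CPM of 6 endothelial markers (log axis), with 1 point per library or animal. The restored Trp53-deficient points lie between 39.5 and 71.5 CPM of Cav1 over endothelial sums from 1.11 to 70.6 CPM.

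The effect of restoration on the 10 genes was also compared directly between the Trp53 backgrounds. With edgeR 0 of 10 passed, as did 0 of the 13706 genes tested (0%, 422 at an unadjusted p under 0.05, 0 with DESeq2). Cav1 had the smallest unadjusted p of the 10, with a difference in log2 fold change of 1.47 (SE 0.59, unadjusted p = 0.0202, adjusted p = 1.00). For Emp2 the difference was 0.18 (SE 0.25) and for Aqp5 0.29 (SE 0.26).

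Between Trp53-deficient and wild-type tumors 0 of 10 type I genes passed with edgeR or DESeq2, whether non-restored or restored. In non-restored tumors 0.584% of all genes were called (0.365% higher and 0.219% lower). There, 1 of the 10 had an unadjusted p under 0.05, beside 2430 of all 13706 genes. In restored tumors 0.372% were called (0.182% higher and 0.190% lower). Of the 10, 2 had an unadjusted p under 0.05 there, beside 2121 of all 13706 genes. None of the 10 had groups without overlap in either comparison, where 0.671% and 3.12% of all genes did. The median log2 fold change over the 10 genes was -0.61 in non-restored and -0.66 in restored tumors, beside -0.02 and 0.00 over all genes, and -0.73 in non-restored tumors without replicate 8. Over the 16 other type I genes the medians were -0.13 and -0.10, with 10 and 8 of the 16 negative. The 12 type II markers had medians of -0.87 and -0.70, with 11 and 12 of the 12 negative. For the 13 transitional genes tested they were 0.51 and 0.59, with 10 and 11 of the 13 positive. Ager was at 170, 220, 85.6 and 40.5 CPM in the non-restored Trp53-deficient animals, below 8 of the 10 wild-type libraries, or -0.95 on the log2 scale (SE 0.47, adjusted p = 0.297). Clic5 was at 397, 374, 262 and 392 CPM, below 9 of the 10, with -0.70 (SE 0.34, adjusted p = 0.287). The remaining wild-type library for Clic5, and the lowest for Ager, was replicate 8. Without it both passed, with log2 fold changes of -1.10 (SE 0.32, adjusted p = 0.033) for Ager and -0.84 (SE 0.22, adjusted p = 0.0208) for Clic5. Over all genes the calls in this comparison ran from 26 to 1448 as 1 unit was left out, against 80 with all units. These 2 calls are therefore not set beside a share of all genes from the same fit. Akap5 had the smallest unadjusted p with all libraries, with -1.68 (SE 0.74, unadjusted p = 0.0328, adjusted p = 0.242), and Emp2 differed by 0.02 (SE 0.17). Among the other lists Cdkn1a, which is a target of p53, alone passed, and fell by 1.35 (SE 0.23, adjusted p = 0.00461) in non-restored and by 1.62 (SE 0.25, adjusted p = 0.000944) in restored tumors on the log2 scale.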

How the data were processed

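Bulk RNA sequencing was done on lung tumor cells sorted by FACS. The authors aligned paired-end reads to mm10 with STAR 2.6.1d and estimated gene abundance with RSEM 1.2.30. Each library's deposited file gives expected counts, which RSEM estimates gene by gene without normalization, and on average 5.57% of them per library had a fractional part. It also gives TPM, deposited by the authors as RSEM's length-scaled abundance. The authors' DESeq2 1.26.0 comparison tables (fold changes with their p-values) and a deposited table of normalized counts with 32 per-sample columns, which repeats the same libraries on another scale, were not used.

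Groups came from the labels. Libraries whose titles name one animal were summed, so 7 non-restored Trp53-deficient libraries gave 4 units and 32 libraries gave 29. Expected counts were rounded, filtered with filterByExpr, scaled by TMM and tested with edgeR's robust quasi-likelihood F test (edgeR 4.0.16, limma 3.58.1, R 4.3.3), with Benjamini-Hochberg adjustment over all genes tested and a threshold of 0.05. One fit held the 21 libraries with wild-type Trp53, another the 8 Trp53-deficient units, and comparisons between Trp53 backgrounds used a fit of 25 units. The fits were tested on simulated data. Alternatives were DESeq2 1.42.0, median-of-ratios size factors, no filter, at least 10 counts in every library, effective length offsets, a sex covariate, females alone, only the 2 groups compared, each control arm alone, a replicate block, separate libraries of one animal, and leaving out each unit.

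The genes and lists were chosen with earlier results of these data known. The text names the 10 genes, Stk11, genes of the other lists that pass in a comparison (at most 4 per list and comparison) and the 3 genes most like Hopx and Ager. Sftpc, Lyz2 and Muc5b were named after their values were seen. For plots and spread, 0.5 was added to CPM before log2. Coordinates are from GENCODE M21 (GRCm38, the build of the files). Whether counting used strand is not stated, so Hopx, Rtkn2 and Cav1 cannot be told apart from the antisense genes they overlap, which had 18, 2 and 1 counts in all libraries against 9940, 692 and 3437. Of the 320 values of the 10 genes, 1 had a fractional part (whole meant a remainder of exactly 0). Replicate numbers in the labels mark no shared animal, and of 15 same-numbered pairs 6 correlated over 0.1, so the numbers were not treated as pairing. Python 3.11.15 with numpy 2.4.6, pandas 2.3.3 and matplotlib 3.10.9 was used for tables and plots. One further allele that all groups share is not reported here. The spread and correlations without non-restored replicate 8 were chosen after seeing the data.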

Additional observations from a re-analysis of the deposited data

Results flagged for a closer look

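Within groups of 4 to 10 libraries or animals, each of the 10 genes was checked for a value far from its neighbours by Dixon's ratio on the log2(CPM + 0.5) scale. Of 50 such sets 7 held one, where about 1 in 20 would for independent sets of normally distributed values. The sets share libraries and the genes go together, so this is not a test against chance. In non-restored replicate 8, Ager was at 16.1 CPM, Aqp5 at 162 CPM and Clic5 at 89.0 CPM, each far below the other 9 libraries. In restored Trp53-deficient replicate 4, Hopx was at 13.8 CPM (62 counts) and Rtkn2 at 1.11 CPM (5 counts), far below the other 3 libraries. In the non-restored Trp53-deficient group Clic5 was low in animal 3 (262 CPM) and Emp2 was high in animal 1 (1061 CPM). The 3 libraries of animal 1 differed among themselves for Emp2, at 1274, 1250 and 691 CPM.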

How the results depend on the processing

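The number of the 10 genes called depended on the setting. For restored against non-restored tumors, where 1 was called, it was 2 with DESeq2 and with a replicate block (Emp2 and Aqp5), and 0 with effective length offsets, a sex covariate, females alone or the tamoxifen control arm alone, and it ran from 0 to 2 as 1 library was left out. For non-restored against KT, where 2 were called, it was 1 without a filter, with at least 10 counts in every library, with a sex covariate, against either control arm alone or with a replicate block, and 0 in females alone, and it ran from 1 to 2 as 1 library was left out. For Trp53-deficient against wild-type non-restored tumors, where 0 were called, it ran from 0 to 2, with Ager and Clic5 called without non-restored replicate 8. The replicate block rests on numbers that were not shown to pair the libraries (6 of 15 same-numbered pairs correlated over 0.1, and 3 correlated best with their own number). Under it Aqp5 passed with restoration (adjusted p = 0.00552) and Pdpn did not pass with Lkb1 loss (adjusted p = 0.121). Only the non-restored group of that fit has a replicate 8, so the block gave that library a term of its own. All medians of the 10 genes moved by less than the spread between libraries under every alternative. That spread was an SD of 0.60 to 0.75 on the log2 scale, larger than each of the medians. A median could therefore vanish and still meet this measure. No called gene changed sign. The cause of the changes in calls and medians was not tested.

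Over all genes, the calls for restored against non-restored tumors were 236, but 470 with DESeq2 and 50 against the tamoxifen arm, and 145 to 319 leaving out 1 library. For non-restored against KT they were 741, but 132 in females, 280 with the tamoxifen arm and 340 to 951 leaving out 1 library. For restored against KT they were 58, but 177 with DESeq2, 20 with at least 10 counts, 22 with sex as a covariate, 10 in females and 21 to 57 leaving out 1 library. Restoration in Trp53-deficient tumors gave 0, but 26 with DESeq2, 3 without a filter and 0 to 1 leaving out 1 unit. Trp53 loss gave 80 in non-restored tumors, but 432 with DESeq2, 302 with sex as a covariate, 465 with libraries of one animal apart and 26 to 1448 leaving out 1 unit, and 51 in restored tumors, but 214 with DESeq2 and 25 to 64 leaving out 1 unit. With 4 KT libraries of at most 2649449 counts, changes in Igfbp2, Rtkn2 and Pdpn were the least precise, with SEs of 0.67 to 1.39 on the log2 scale for non-restored against KT.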
